A study of Ulmus minor with 54 samples.

Results

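Elm leaves 6 h after simulated egg deposition (P, 3 libraries) were compared with untreated leaves harvested at the same hour (C, 3 libraries), and the transcripts described are those that untreated elm leaves express. A transcript was taken as leaf-expressed when its median level over the 18 libraries of untreated leaves (groups C and CC) was at least 0.5 CPM, the reads of a transcript scaled to a common library size. This held for 71158 of the 237477 assembled sequences in the deposited table, or 29.96%. The last transcript inside the limit had a median of 0.500091 CPM and the first outside it 0.499982 CPM. All 71158 passed the filter on low counts, so none was lost before testing. The choice used only the level in untreated leaves and not the difference between P and C.

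The plants were wild-type field elms, Ulmus minor, aged 15 to 19 weeks, raised in a greenhouse from 1 clonal in vitro culture. In P leaves a strip of epidermis of 1.5 cm by 1 mm was removed with a scalpel, and the wound was covered with oviduct secretion of gravid elm leaf beetles. C leaves were neither scratched nor given secretion, so the wound and the secretion cannot be told apart in this comparison. No larvae were placed on P or C leaves. P and C leaves harvested at 1 and 24 h, again with 3 libraries each, complete the priming set of 18 libraries. The triggering set of 36 libraries dates from 7 days later, when some leaves received 5 neonate larvae each, and was harvested at 1, 6 and 24 h. Its groups were untreated leaves (CC), leaves with simulated eggs alone (PC), leaves with larvae alone (CT), and leaves with simulated eggs followed by larvae (PT). About 100 mg of tissue around the treated site went into each sample, and polyadenylated RNA was sequenced. Whether the 3 libraries of a group represent 3 trees is not in the labels. The p-values therefore refer to the spread among libraries, part of which may be technical.

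Plants can perceive the eggs of herbivorous insects and the wounds that often go with egg laying. Elm leaf beetles fasten their eggs to the leaf with oviduct secretion, and elms answer egg deposition with volatiles that attract a wasp parasitising the eggs. An early signal of this kind can also change how strongly a plant responds to the larvae that hatch later, which is called priming. Wounding and chewing in general act through jasmonate signals that switch on defence genes. The deposited table pairs no identifier with a gene name, so no function is given to any transcript below, and the labelled tissue could not be checked against marker genes. Leaf-expressed transcripts are described by identifier, level and response. Among them 22.8% were scaffolds (joined contigs) of the assembly, against 8.76% of all sequences.

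The 6 libraries held 28916592, 49376938 and 55915584 reads in C and 32629486, 45795755 and 38964697 reads in P. Leaf-expressed transcripts took 97.7 to 98.1% of the reads in C and 94.3, 96.9 and 98.3% in P. The 10 most abundant sequences of a library took 32.7% of the reads in C replicate 1 and 43.2% in P replicate 3, against 7.72 to 13.7% in the other libraries of 6 h. Rank correlations of leaf-expressed levels were 0.907 to 0.954 between P and C libraries, 0.920 to 0.960 within C and 0.924 to 0.961 within P. These ranges overlapped, with the lower values within groups in pairs with C replicate 1 or P replicate 3. P replicates 1 and 2 (0.961) and C replicates 2 and 3 (0.960) lay above all pairs of P with C. P replicate 3 was closest to the other P libraries (0.924 and 0.925), while C replicate 1 was closest to P replicate 2 (0.929).

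Few leaf-expressed transcripts passed the test at 6 h, and all that did were higher after simulated eggs. In edgeR's quasi-likelihood test, with p-values adjusted by Benjamini-Hochberg across the 126737 transcripts tested and a threshold of 0.05, 8 of 71158 leaf-expressed transcripts rose (0.0112%) and 0 fell (0%). Over all tested transcripts 37 rose (0.0292%). At an unadjusted p of at most 0.05 there were 1912 higher (2.69%) and 1963 lower (2.76%), and DESeq2 called 145 as higher and 28 as lower. The 8 risers included 5 contigs and 3 scaffolds. Their log2 fold changes ran from 1.21 to 5.40 with a median of 2.32, and 7 of them reached 4-fold. In bulk leaf tissue, more cells of a type and more RNA per cell cannot be told apart.

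These calls rest on all 6 libraries. Leaving out C replicate 2, C replicate 3, P replicate 1 or P replicate 2 left 0 of the 8 called. Without P replicate 3 there remained 3, and without C replicate 1, 3 of the 8 stayed among 21 calls. The log2 fold change of each riser kept its sign in all 6 of these fits. For each of the 8 all P libraries lay above all C libraries, so the sign could hardly change and adds no support.

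**Figure D1:**
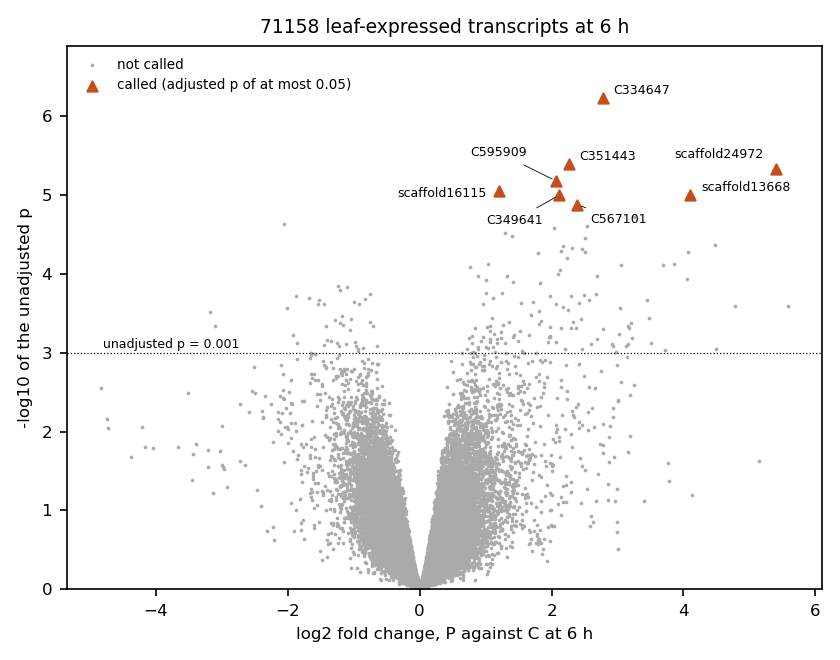
Each point is 1 of the 71158 leaf-expressed transcripts, with its log2 fold change in P against C at 6 h on the horizontal axis and the -log10 of its unadjusted p on the vertical axis. The 8 called transcripts (triangles) all lie on the right, at log2 fold changes of 1.21 to 5.40.

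The bulk of leaf-expressed transcripts was centred on no change, with a median log2 fold change of -0.01. Past 2-fold lay 850 higher (1.19%) and 527 lower (0.741%) transcripts, whether or not they passed the test. The P and C libraries did not overlap for 5016 transcripts that were higher in P (7.05%) and for 5108 that were lower (7.18%). The excess of higher over lower transcripts appeared at stricter limits. At an unadjusted p of at most 0.001 there were 124 higher (0.174%) and 39 lower (0.0548%). This excess depended on single untreated libraries. Without C replicate 2 there were 48 higher and 43 lower, and without C replicate 3 there were 50 and 44. Called transcripts came from several levels of expression in untreated leaves. There were 4 among the 22858 transcripts of 0.5 to 1 CPM, 0 among the 37302 of 1 to 10 CPM, 3 among the 9705 of 10 to 100 CPM and 1 among the 1293 above 100 CPM. The second class, with 0 calls, held 73 of the 124.

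The called transcripts fell into 3 patterns when they were followed through the other libraries of the series. The P and C libraries of 1 and 24 h shared the fit and its estimate of spread with the comparison at 6 h, and the triggering libraries did not. C334647 and C351443 are the 2 risers with the smallest p, which the rule for named transcripts selects. The other 6 are named because each belongs to a count of 5 or fewer, and were thus chosen after their values were seen. The grouping was also made after the values were seen.

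The first pattern comprised C334647, scaffold24972 and scaffold13668, which rose 6 h after simulated eggs and also rose under larval feeding at 6 and 24 h. Their medians in untreated leaves, 0.524, 0.528 and 0.545 CPM, lay just above the limit of 0.5 CPM, so their fold changes start from a low level. Scaffold13668 had 5 reads in C replicate 1 at 6 h. C334647 stood at 0.800, 0.359 and 0.515 CPM in the C libraries of 6 h and at 4.85, 3.89 and 2.24 CPM in the P libraries. The lowest P library was more than the highest C library, and P replicate 3 was the lowest of P. The log2 fold change was 2.77 ± 0.35 (SE, n = 3 libraries a group), with an adjusted p of 0.0216 from edgeR's quasi-likelihood test. It had the smallest p of all leaf-expressed transcripts.

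Scaffold24972 had the steepest rise of the 8. Its C libraries were at 1.60, 0.519 and 0.461 CPM and its P libraries at 40.8, 54.7 and 6.28 CPM. The P libraries thus spread widely, and replicate 3 had the lowest level by far while still standing above each C library. The log2 fold change was 5.40 ± 0.81 (SE), with an adjusted p of 0.0364. Scaffold13668 was at 0.222, 0.539 and 1.12 CPM in C and at 19.0, 10.4 and 5.01 CPM in P, again with P replicate 3 lowest. Its log2 fold change was 4.11 ± 0.66 (SE), with an adjusted p of 0.0466.

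Under larval feeding these 3 transcripts passed the same test in each of 4 comparisons, with log2 fold changes of 3.24 to 5.70. Feeding without earlier eggs raised 0.652% of leaf-expressed transcripts at 6 h (CT against CC) and 4.95% at 24 h. Feeding after simulated eggs raised 0.766% at 6 h (PT against PC) and 4.33% at 24 h. C334647 rose by 3.49 ± 0.55 in CT and by 4.19 ± 0.56 in PT at 6 h (log2, SE), where its mean level was 3.89 and 5.35 CPM. At 24 h its level reached 25.8 CPM in CT and 12.6 CPM in PT, against 0.536 CPM in CC and 0.501 CPM in PC. Scaffold24972 had 8.06 CPM in CT and 9.50 CPM in PT at 6 h, and 17.8 and 17.3 CPM at 24 h. Scaffold13668 had 5.94 and 8.84 CPM at 6 h, and 25.0 and 22.6 CPM at 24 h. CPM values were scaled within each set, so levels set across the priming and the triggering libraries are only approximate. CT replicate 1 of 24 h stood apart, with 80.3% of its reads in 10 sequences. Without it the 5 risers called in CT at 24 h, these 3 and the following pair, numbered 5 again.

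The hours of the priming set differed among these 3 in level. C334647 was the only one of the 8 also called 1 h after simulated eggs, among 57 leaf-expressed risers of that hour (0.0801%), with a log2 fold change of 2.05 ± 0.35 (SE) and an adjusted p of 0.0345. Its P level was 1.84 CPM at 1 h, 3.66 CPM at 6 h and 0.896 CPM at 24 h, on means of 3 libraries. Scaffold24972 had 0.900, 33.9 and 0.628 CPM at these hours, and scaffold13668 had 1.12, 11.5 and 1.36 CPM. At 24 h, when 4 leaf-expressed transcripts rose (0.00562%), none of the 8 was called.

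The second pattern was a pair, C595909 and scaffold16115, that rose 6 h after simulated eggs and rose under feeding at 24 h but were not called under feeding at 6 h. C595909 was at 0.311, 0.499 and 0.834 CPM in C and at 2.93, 2.21 and 2.08 CPM in P. The P libraries lay close together and well above C. Its median in untreated leaves was 0.625 CPM and C replicate 1 held 7 reads, so this fold change also starts from a low level. The log2 fold change was 2.07 ± 0.32 (SE), with an adjusted p of 0.0417. Scaffold16115 was at 42.6, 34.3 and 31.3 CPM in C and at 80.3, 75.6 and 93.7 CPM in P. This was the smallest change of the 8 and came with little spread within either group. The log2 fold change was 1.21 ± 0.19 (SE), with an adjusted p of 0.0466.

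Larvae raised C595909 at 24 h by 1.96 ± 0.42 in CT and by 2.54 ± 0.43 in PT (log2, SE). The values at 6 h were 0.62 ± 0.40 and 0.52 ± 0.42, with adjusted p of 0.706 and 0.642. Scaffold16115 rose at 24 h by 1.49 ± 0.35 in CT and by 1.61 ± 0.35 in PT. At 6 h it was higher by 0.89 ± 0.35 and 0.95 ± 0.35 with adjusted p of 0.325 and 0.209, which misses the threshold and does not show that it stayed level. One hour after simulated eggs scaffold16115 was higher by 0.73 ± 0.19 with an adjusted p of 0.167. Its P level was 76.7 CPM at 1 h, 83.2 CPM at 6 h and 42.3 CPM at 24 h, while C stood at 46.2, 36.1 and 37.4 CPM.

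**Figure D2:**
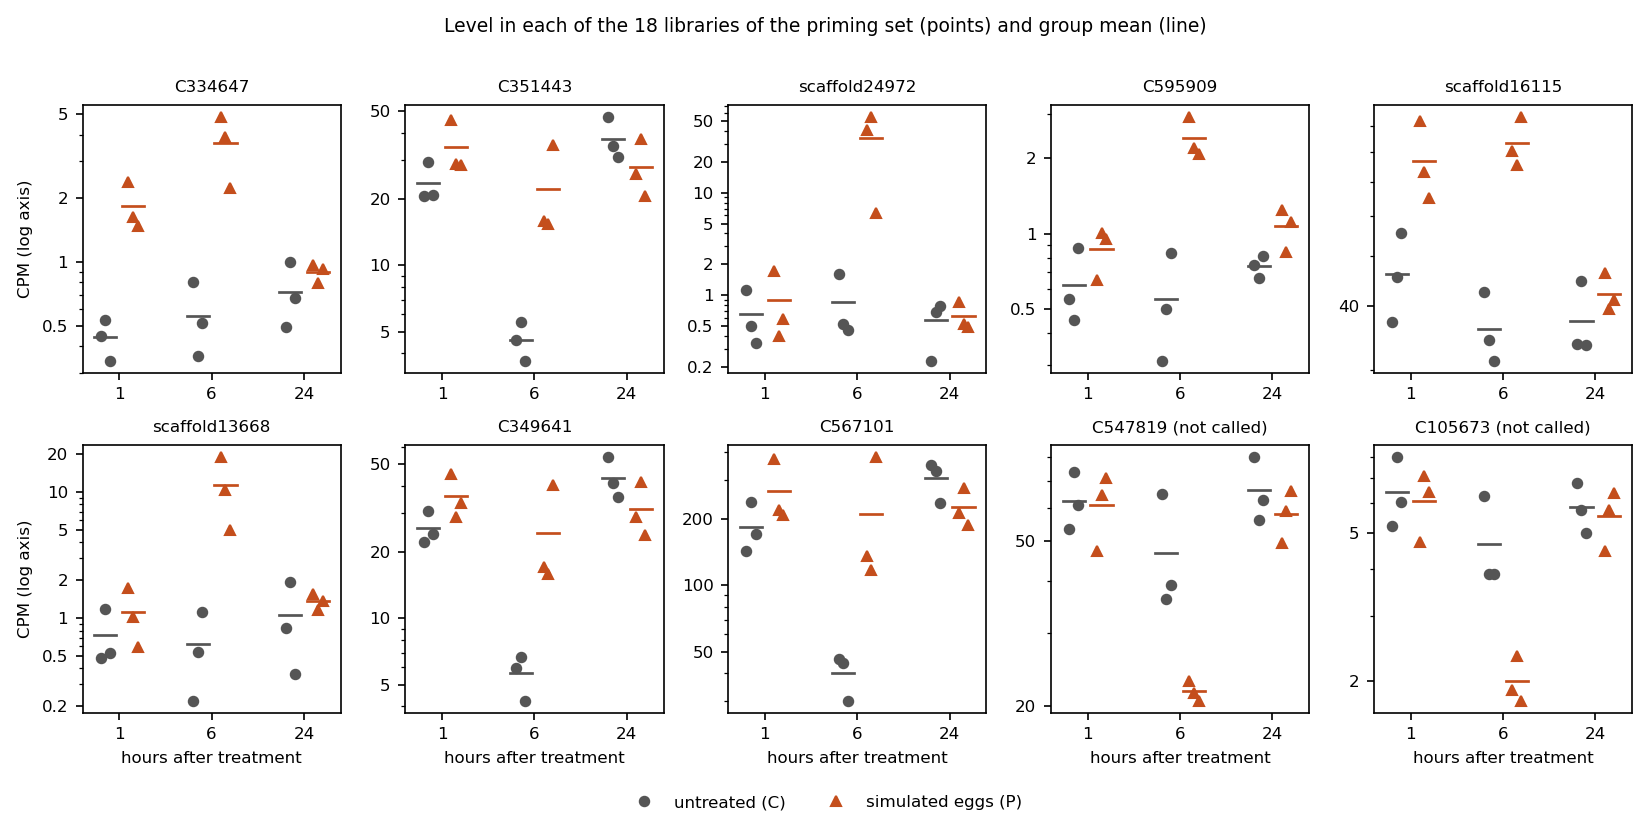
Each panel shows 1 transcript, with its level in CPM (log axis) in the 9 C libraries (circles) and 9 P libraries (triangles) of the priming set at 1, 6 and 24 h, and the group means as lines. At 6 h the 8 called transcripts have P libraries above all C libraries, and the last 2 panels show the lower, not called transcripts C547819 and C105673.

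The third pattern was a trio, C351443, C349641 and C567101, whose rise appeared against a low level of untreated leaves at 6 h. C351443 was at 4.58, 5.55 and 3.71 CPM in C and at 15.9, 15.4 and 35.1 CPM in P. P replicate 3 stood at more than the sum of the other P libraries. The log2 fold change was 2.26 ± 0.34 (SE), with an adjusted p of 0.0362. C349641 was at 5.96, 6.71 and 4.24 CPM in C and at 17.2, 15.9 and 40.5 CPM in P. C567101 was at 46.3, 44.4 and 30.1 CPM in C and at 135, 117 and 381 CPM in P. Both thus had P replicate 3 highest as well. Their log2 fold changes were 2.12 ± 0.34 and 2.39 ± 0.39 (SE), with adjusted p of 0.0466 and 0.0485.

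The C level of the trio at 6 h was below that of 1 and 24 h. C351443 averaged 23.6 ± 4.96 CPM at 1 h, 4.61 ± 0.922 CPM at 6 h and 37.6 ± 8.45 CPM at 24 h in C (SD, n = 3 each). In P it averaged 34.3 ± 9.69, 22.1 ± 11.3 and 27.96 ± 8.50 CPM. The P libraries of 6 h overlapped those of the other hours only through P replicate 3, at 35.1 CPM. P replicates 1 and 2, at 15.9 and 15.4 CPM, lay below all P libraries of 1 and 24 h, the lowest of which had 20.6 CPM. The same held for C349641 and C567101. All C libraries of 6 h lay below those of the other hours. Within P none of the trio was called between 6 and 1 h, with adjusted p of 0.24 to 0.636 where 6.45% of leaf-expressed transcripts rose and 6.75% fell. Nor was any called between 6 and 24 h, with adjusted p of 0.486 to 0.897 where 10.9% rose and 9.39% fell. The part of P replicate 3 in these results within P was not tested, and they do not show that P stayed level. Within C all 3 were lower at 6 h than at 1 h and 24 h, with adjusted p from 6.81e-05 to 0.002, where 6.3% and 8.05% of leaf-expressed transcripts were called lower. These values share the C libraries of 6 h with the comparison that chose the trio, so they describe it and add no support.

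Untreated leaves of the triggering set, which had no part in the comparison of P and C at 6 h, were also low at 6 h. They did enter the leaf-expressed median and the feeding comparisons, and the trio was grouped after these values were seen. C351443 averaged 20.3 ± 11.3 CPM at 1 h, 5.77 ± 2.35 CPM at 6 h and 19.3 ± 8.68 CPM at 24 h in CC (SD, n = 3 each). In CC at 6 against 1 h it was called lower by edgeR, at an adjusted p of 0.0446, as were 2.64% of leaf-expressed transcripts. C349641 and C567101 had log2 fold changes of -1.73 and -1.83 with adjusted p of 0.0582 and 0.0558, just over the threshold. Between 6 and 24 h in CC, where 1.37% were called lower, the adjusted p were 0.0868, 0.101 and 0.117.

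None of the trio was called in a feeding comparison. At 6 h C351443 had a mean of 7.27 CPM in CT, 6.38 CPM in PT and 4.27 CPM in PC, against 5.77 CPM in CC. The log2 fold changes of the trio under feeding were 0.29 to 0.36 in CT and 0.38 to 0.58 in PT at 6 h, each with an SE of 0.49 to 0.51. The high P level at 6 h thus had no called counterpart in the fed leaves of the same hour. Whether the response to simulated eggs and to feeding differs was not tested, since the sets were fitted apart.

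**Figure D3:**
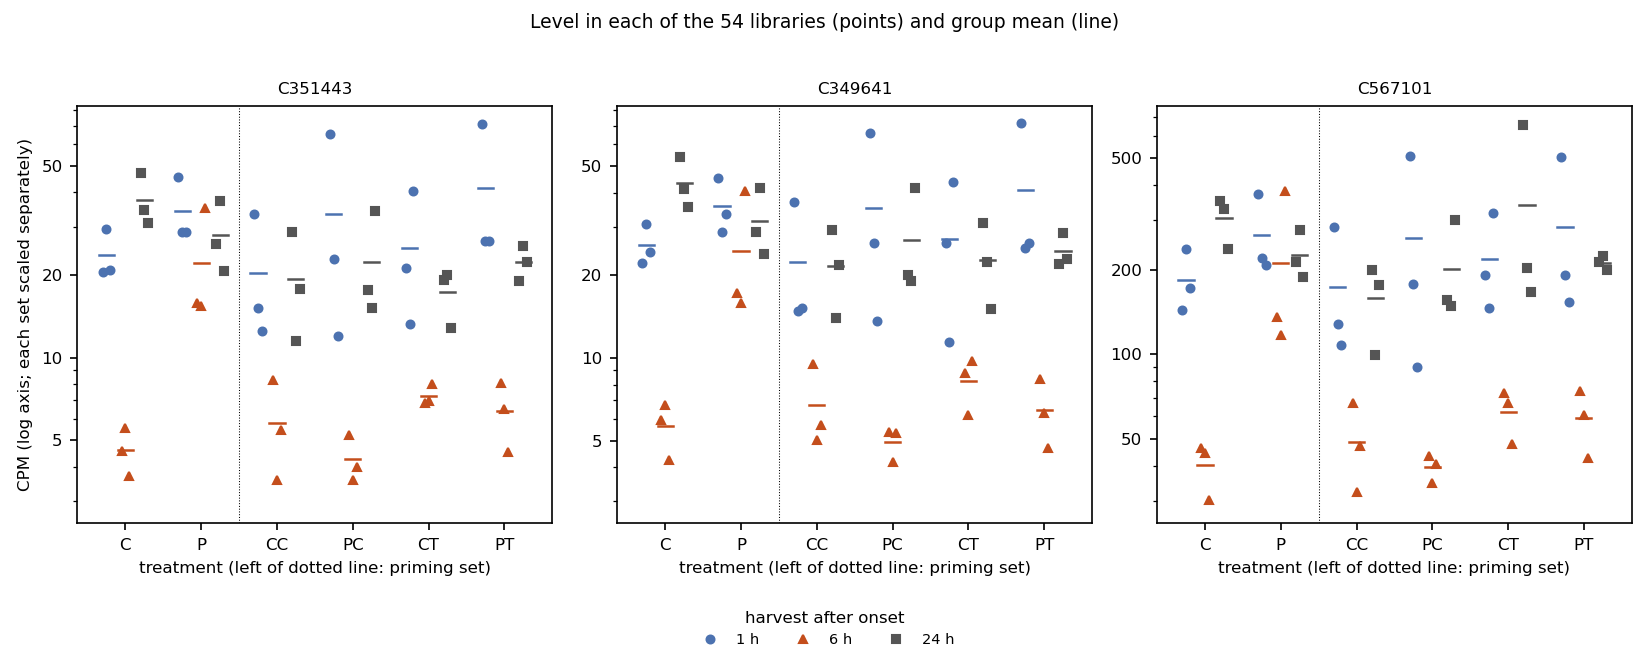
Level in CPM (log axis) of C351443, C349641 and C567101 in each of the 54 libraries, by treatment along the horizontal axis and by harvest hour as symbols, with group means as lines. The libraries of 6 h (triangles) lie below all libraries of 1 and 24 h in each group but P, where C351443 averages 22.1 CPM at 6 h against 4.61 CPM in C.

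The trio moved together within libraries. There were 0.861 to 1.61 reads of C349641 for each read of C351443 over the 54 libraries, with a median of 1.14. For C567101 the ratio was 5.75 to 13.04 in 53 libraries, with a median of 8.57 over all 54, and 33.99 in CT replicate 1 of 24 h. That library was also the shallowest of the series, with 14667334 reads. Reads of closely related sequences cannot be told apart here, and whether the 3 come from 1 gene or several was not tested.

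The responses of 6 h were not shown to differ from those of 1 or 24 h. The interaction of treatment and hour was called for 0 leaf-expressed transcripts in either case by edgeR (0%). At an unadjusted p of at most 0.05 it had 3100 transcripts for 6 against 1 h and 2826 for 24 against 6 h, and DESeq2 called 14 and 38. The smallest adjusted p was 0.0982 for 24 against 6 h. For the 8 risers, the change of the response from 6 to 24 h was -5.31 to -1.03 on the log2 scale and negative in all 8, which the choice by the 6 h values favours. C351443 had the smallest unadjusted p among them, 2.13e-05, with an adjusted p of 0.624.

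**Figure D4:**
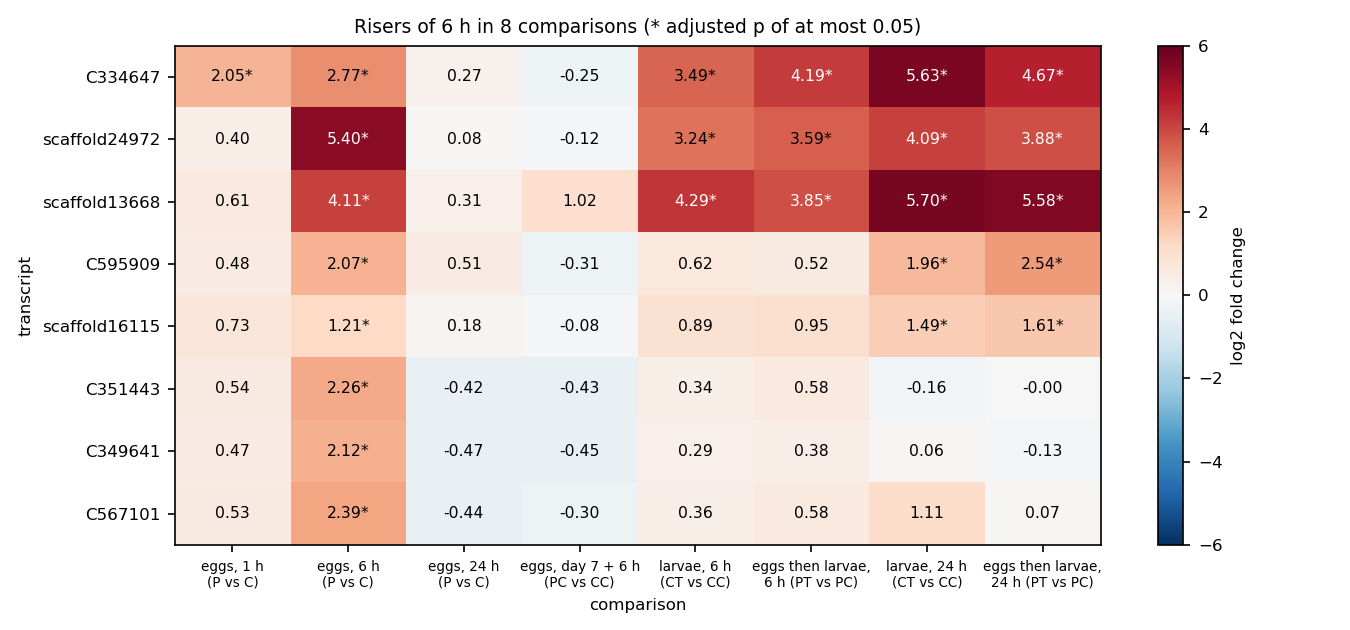
Log2 fold changes (colour and number) of the 8 risers of 6 h, in rows, in 8 comparisons, in columns. An asterisk marks an adjusted p of at most 0.05, and the top 3 rows carry it in each of the 4 feeding comparisons while the bottom 3 carry it only at 6 h after simulated eggs.

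None of the 8 risers was called in unfed leaves a week later. In unfed leaves 7 days and 6 h after simulated eggs (PC against CC), 0 of the 71158 leaf-expressed transcripts passed the test (0%). The log2 fold changes of the 8 risers ran there from -0.45 to 1.02, with a median of -0.27 and 1 above 0. The highest was scaffold13668, at 1.02 ± 0.68 (SE). At 7 days and 1 h (PC against CC, again 0% called) all 8 were above 0, from 0.26 to 1.52 with a median of 0.62. The highest there was scaffold24972, at 1.52 ± 0.57 (SE) and an adjusted p of 1. PC against CC and CT against CC share the CC libraries.

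A wider list was formed from the 124 leaf-expressed transcripts higher in P at an unadjusted p of at most 0.001. It was chosen on the values of 6 h, its members reach an adjusted p of up to 0.365, and most of them are not called. Its length depended on single libraries, at 218 transcripts without C replicate 1, 48 without C replicate 2, 50 without C replicate 3 and 57 without P replicate 1. The median log2 fold change of the 124 was 2.05, and their median level in untreated leaves was 1.91 CPM, against 1.64 CPM for all leaf-expressed transcripts. In other libraries many of these transcripts were called. Of the 124, 34 were raised by feeding in CT at 6 h (27.4%) and 37 in PT (29.8%), beside shares of 0.652% and 0.766% among all leaf-expressed transcripts. At 24 h of feeding 80 rose in CT (64.5%, beside 4.95%) and 82 in PT (66.1%, beside 4.33%).

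Over the 6 fits that leave out 1 library of P or C at 6 h, the share of such a list that rose in CT at 24 h was 48% to 73.9%. One hour after simulated eggs 7 of the 124 were called higher (5.65%, beside 0.0801%), at a median of 0.67 (log2). At 24 h after simulated eggs none of the 124 was called, with a median of 0.25, and in PC against CC at 6 h none was called, with a median of -0.02. Only 0.00562% and 0% of all leaf-expressed transcripts rose in these comparisons, so the counts of 0 do not set the list apart.

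**Figure D5:**
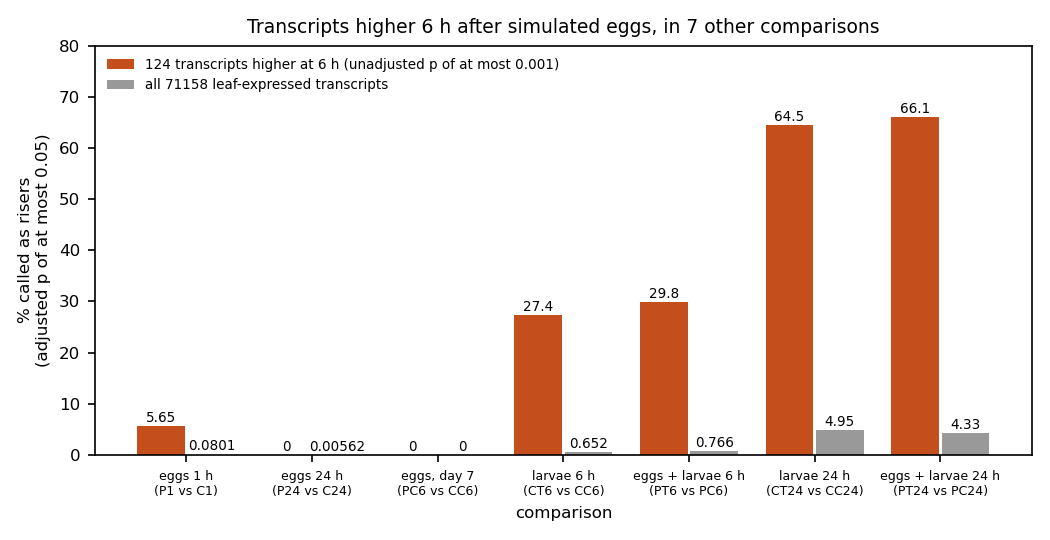
Bars give the percentage called as risers (adjusted p of at most 0.05) in 7 other comparisons, for the 124 transcripts higher 6 h after simulated eggs (orange) and for all 71158 leaf-expressed transcripts (grey). The orange bars reach 27.4% and 29.8% at 6 h of feeding and 64.5% and 66.1% at 24 h, and 0 at 24 h and 7 days after simulated eggs.

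Split by their calls under feeding, the 124 gave unlike profiles. There were 29 that rose in all 4 feeding comparisons of 6 and 24 h, with median log2 fold changes of 3.13 in P at 6 h and 2.05 in P at 1 h. A further 44 rose in both feeding comparisons of 24 h but not in both of 6 h, and had medians of 1.60 in P at 6 h and 0.81 at 1 h. The 34 that rose in none of the 4 had a median of 1.89 in P at 6 h, 0.49 at 1 h. The trio belongs to these 34. In untreated leaves of the triggering set their median difference between 6 and 1 h was -0.58, beside -0.02 over all leaf-expressed transcripts. It was -0.25 in the 29, -0.26 in the 44 and -0.39 in the remaining 17, and the difference between these classes was not tested. Of all 124, 13 were called lower there (10.5%, beside 2.64%).

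Most transcripts that rose under larval feeding were higher in P than in C at 6 h. For the counts of calls below, 0.0112% of all leaf-expressed transcripts were called higher at that hour and 0% lower. The 261 leaf-expressed transcripts that rose at 6 h in both CT and PT stood at a median of 0.91 (log2) in P over C at 6 h, and 247 of them were above 0 (94.6%, beside 49.2% of all leaf-expressed transcripts). Past 2-fold lay 115 (44.1%, beside 1.19%), and 3 were called, the first pattern above. The 1942 that rose in both feeding comparisons of 24 h had a median of 0.36, with 87.5% above 0 and 5 called. The 2477 that fell in both had a median of -0.12, with 31% above 0 and 0 called, a count that does not set them apart. For the 57 risers of 1 h after simulated eggs the median at 6 h was 0.83, with 54 above 0. For the 4 risers of 24 h it was -0.24.

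The size of this difference depended on the untreated libraries. The 261 feeding risers had a median level of 3.42 CPM in C replicate 1 at 6 h, against 1.36 and 1.47 CPM in C replicates 2 and 3. In P they had 5.61, 4.55 and 3.93 CPM, so C replicate 1 lay between the other C libraries and P. Without C replicate 1 the median log2 fold change was 1.62, without C replicate 2 it was 0.59 and without C replicate 3 it was 0.66. Leaving out a P library gave 0.83 to 0.97. The part of that library's makeup in the result was not tested.

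No leaf-expressed transcript was called lower at 6 h. By the rule for this case, C547819 and C105673 are named as the lower transcripts with the smallest p among those with groups that do not overlap and a mean log2 CPM of at least 1. C547819 was at 65.0, 36.2 and 39.2 CPM in C and at 23.01, 21.4 and 20.6 CPM in P. Its log2 fold change was -1.11 ± 0.23 (SE), with an adjusted p of 0.163. C105673 was at 6.27, 3.87 and 3.89 CPM in C and at 1.89, 2.34 and 1.77 CPM in P. Its log2 fold change was -1.21 ± 0.25 (SE), with an adjusted p of 0.172. In both the P libraries lay close together below C, and C replicate 1 was the highest. DESeq2 called both, with adjusted p of 0.00407 and 0.00635.

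C547819 fell in PT against PC at 6 h (log2 fold change -1.36 ± 0.35, adjusted p 0.0468, where 0.159% of leaf-expressed transcripts fell) and in CT against CC at 24 h (-1.29 ± 0.35, adjusted p 0.0159, where 10% fell). It was not called in CT at 6 h, at -0.43 ± 0.35, or in PT at 24 h, at -0.47 ± 0.35. C105673 was not called in any of the 4. Of the 39 lower transcripts at an unadjusted p of at most 0.001, 0 fell in CT at 6 h, beside 0.059%, and 1 in PT (2.56%, beside 0.159%), which is C547819. At 24 h 5 fell in CT (12.8%, beside 10%) and 2 in PT (5.13%, beside 5.22%). The shares at 24 h lie near those of all leaf-expressed transcripts. Without P replicate 1 the list of lower transcripts held 19, and without C replicate 1 it held 20. It held 43 without C replicate 2, 44 without C replicate 3, 50 without P replicate 2 and 39 without P replicate 3.

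No transcript called lower, or higher, in CC at 6 h than at both other hours was called in P against C at 6 h. C351443, a riser, was called lower in CC at 6 than at 1 h but not at 6 than at 24 h. Of all leaf-expressed transcripts 1.16% were called higher in CC at 6 than at 1 h, and 0.311% at 6 than at 24 h. Of 689 called lower in CC at 6 h than at both other hours, 0 were called in P against C at 6 h, with a median log2 fold change of -0.11 and 272 above 0. The 142 called higher in CC at 6 h had a median of 0.10 and 86 above 0, again with 0 called. Among all leaf-expressed transcripts 49.2% were above 0. Only 0.0112% of them were called higher and 0% lower, so the counts of 0 do not set these lists apart. None of the 8 risers is on either list.

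Sequences near 0 in untreated leaves, with a median under 0.1 CPM, are given apart. Of 102380 such sequences, 4671 passed the filter, and 18 of these rose in P at 6 h (0.385%). A sequence near 0 in untreated leaves can pass the filter through a group in which it is high, so this share supports nothing about the near-0 sequences. A further 11 of the 37 calls at 6 h came from 50908 tested sequences in between (0.0216%). The 29 calls outside the leaf-expressed transcripts had a median log2 fold change of 5.21. All near-0 sequences together took 4087, 4394 and 4377 RPM (reads scaled to library totals, as CPM but without further normalization) in C and 36623, 11280 and 4411 RPM in P. P replicates 1 and 2 were thus far above C and P replicate 3 was only just above it. No test is given, since the C libraries had a part in choosing these sequences. The log2 ratio of the means was 2.02, and 0.87 without P replicate 1.

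The leaf-expressed risers differed in how they followed this order of the P libraries. In C334647, C595909 and scaffold13668 P replicate 1 was likewise highest and P replicate 3 lowest. Scaffold24972 also had P replicate 3 lowest, while the other 4 had it highest. Whether the near-0 sequences have a part in the rises was not tested. Summed, the 8 risers took 79.6, 94.2 and 72.8 RPM in C and 308, 303 and 377 RPM in P, with P replicate 3 the highest, and C567101 gave most of these reads in that library. Leaving out any 1 library, with the 8 transcripts held fixed, kept the log2 ratio of the means between 1.89 and 2.11. The same 6 libraries chose the 8, so this ratio describes them and adds no support. For the 124 of the wider list the median log2 level over C was 1.83, 1.73 and 1.76 in the 3 P libraries. With P replicate 1 of all 3 hours left out, 23 leaf-expressed transcripts were called higher and 7 of the 8 were among them.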

How the data were processed

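The deposited table held whole-number read counts for 237477 assembled sequences in 54 libraries, not normalized by the authors, as its values show; 0 of its columns were left out. Per the submitters' processing notes, CASAVA and Trimmomatic 0.33 were used. The assembly, aligner, counting program and use of strand were not given in the sources used here, so reads shared by similar sequences could not be told apart. Counts per library in the 6 h comparison were 28916592 to 55915584.

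From these counts, edgeR 4.0.16 in R 4.3.3 (with limma 3.58.1) was fitted to the 18 priming libraries and, apart, to the 36 triggering libraries. The filter filterByExpr (minimum count 10, minimum total 15) left 126737 and 147417 transcripts. TMM normalization, 1 mean per group and the quasi-likelihood F test followed, with Benjamini-Hochberg adjustment over all tested transcripts. The SE was taken as the size of the log2 fold change over √F. CPM values use TMM-scaled library sizes and RPM values raw totals.

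Named transcripts were the 2 risers and 2 lower transcripts of smallest p with groups that do not overlap, and for lower ones not called a mean log2 CPM of at least 1. The members, lists and tests were chosen with earlier results of these data known. The fits were tested on simulated counts, with a spread set by level alone. Of 50 changed transcripts each, 2 were called at 2-fold, 38 at 4-fold and 49 at 8-fold, with 8 false calls. Few calls thus do not show that changes near 2-fold were absent. Alternatives were DESeq2 1.42.0, its size factors in edgeR, no filter, other limits of leaf expression, a replicate block, fewer hours and left-out libraries.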

Additional observations from a re-analysis of the deposited data

How the results depend on the processing

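The number of calls was the least stable result. Of the leaf-expressed transcripts, 8 called by edgeR in P against C at 6 h became 173 with DESeq2's Wald test (145 higher, 28 lower), 151 with a replicate block within each hour (121 higher, 30 lower) and 63 with only the libraries of 6 h (62 higher, 1 lower). All 8 were among the calls of DESeq2 and of the block, and 5 of them among the 63. There were 23 without P replicate 1 of all 3 hours, 13 with leaf expression from 0.2 CPM and 4 from 1 CPM. Leaving out 1 library gave 0 to 21. Over all tested transcripts, 37 became 498 with DESeq2, 1078 with the block and 164 with only the hours compared. They became 85 without P replicate 1 of all 3 hours, and 0 to 55 when 1 library was left out. The risers of 6 h were listed anew in each fit. Those also called at 1 h numbered 1 of 8 in the reported fit, 35 of 145 with DESeq2 and 25 of 121 with the block. There were 3 of 62 with only the hours compared, 0 of 4 from 1 CPM, 8 of 21 without C replicate 1 and 1 of 3 without P replicate 3. The fits without C replicate 2, C replicate 3, P replicate 1 or P replicate 2 had no riser of 6 h to follow. Also called at 24 h were 2 of the 145 with DESeq2 and 1 of the 121 with the block. The change of response from 6 to 24 h gave 38 calls with DESeq2, 15 with the block and 2 with no filter. It gave 1 without P replicate 1 of all 3 hours, and the change from 1 to 6 h gave 14 with DESeq2. The list at an unadjusted p of 0.001 ran from 48 to 218 higher and 19 to 50 lower transcripts with 1 library left out. The percentage of it that rose in CT at 6 h was then 20.9 to 41.3, and the median of the feeding risers 0.59 to 1.62. The cause of these changes was not tested. DESeq2's size factors in edgeR gave 8 calls. The log2 fold change of the 10 named transcripts kept its sign in 12 alternatives each, and the highest adjusted p over them was 0.327 to 0.672 by transcript. In each of the 10 the P and C libraries of 6 h do not overlap, so a kept sign adds no support.

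Same-numbered P and C libraries of 6 h had correlations of -0.04, 0.01 and -0.08 in their deviations from the group means, which gave no sign of pairing at that hour. For P and C they were 0.21, 0.16 and 0.03 at 1 h and 0.04, -0.01 and 0.09 at 24 h. At 6 h they were 0.20, 0.16 and 0.096 for PT and PC, and -0.05 and 0.11 for CT and CC. Weak pairing in other groups is thus not settled, and the block is given as an alternative. The lists at an unadjusted p, the feeding risers, leaving out libraries in the summed level of the risers, and leaving out CT replicate 1 of 24 h were chosen after seeing the data.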
